A study of Mus musculus with 18 samples.

Results

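The testicular response to follicle-stimulating hormone (FSH) at 24 h was compared with the response at 12 h in hypogonadal (hpg) mice, and the result for each transcript is a difference of responses. The 24 h response is the mean of the 3 arrays of mice treated for 24 h minus the mean of controls 1 to 3. The 12 h response is the mean of the 4 arrays of mice treated for 12 h minus the mean of controls 4 to 7. A positive difference means that the 24 h response was the higher of the pair, and a negative one that it was the lower. These groups make up 14 of the 18 arrays of the study. The other 4 arrays, from mice treated for 72 h, entered only the shared estimate of the spread and are quoted where their level is of use. All 22626 probe sets that are not array controls were members of the comparison.

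All the mice were hpg males aged 10 weeks, so the controls lack gonadotrophins as the treated mice do. hpg mice make no functional gonadotrophin-releasing hormone and have very little circulating FSH or luteinising hormone, which leaves their testes small and spermatogenesis halted in meiosis. Treated mice were given recombinant human FSH (Gonal F, labelled rFSH) under the skin, 8 IU in 0.2 ml every 12 h. Testes were collected 1 h after the final dose, so both treated groups were sampled at the same interval from an injection and differ in how long treatment had run. Controls were untreated, and no mock injection is described for them. Each array held RNA of the whole testis of 1 mouse, so a lower value cannot tell fewer cells of a type from less RNA per cell.

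FSH acts through a receptor that in the testis is carried by Sertoli cells, which form the tubule wall and nurse the germ cells. The receptor raises cyclic AMP, which activates protein kinase A and the transcription factor CREB within minutes, and later changes follow from the proteins made in that first wave. Sertoli cells also answer to androgen from the interstitial Leydig cells, which have no FSH receptor of their own and respond to signals from the tubules. Inhibins, androgen-binding protein and lipid metabolism genes are classical FSH targets, and Rhox5 is the best known androgen target in Sertoli cells.

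The arrays fell into 2 sets, which is why each time was set against its own controls. A spiked-in bacterial transcript, dap, read 2.70 to 3.41 on the log2 scale on the 24 h arrays and controls 1 to 3, and 8.05 to 8.86 on the 12 h, 72 h and remaining control arrays. Probe sets for 18S ribosomal RNA averaged 9.07 to 11.69 in the first set and 3.35 to 3.70 in the second. The control adjustment removes a set effect that is the same in treated and control mice, whereas a set effect that differs between them cannot be told apart from the time of treatment. Within the first set the 24 h arrays had the narrower spread of values, with an interquartile range of 4.25 to 4.50 against 4.53 to 4.72 in controls 1 to 3, while the 12 h arrays (4.71 to 4.82) overlapped controls 4 to 7 (4.74 to 4.86). Control 6 stood apart: 14 transcripts of round and elongating spermatids averaged 9.21 there and 3.16 to 3.71 on each of the other 17 arrays. Where a named gene lost its call without control 6, the adjusted p without it is given beside the result. As a check of the tissue, the 17 Sertoli cell markers averaged 9.48 to 10.07 on all 14 arrays, with 1 marker below a log2 value of 4 in each group.

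The responses at the 2 times differed for 198 probe sets, or 0.875% of those tested, by limma's moderated test with Benjamini-Hochberg adjustment at 0.05. The 24 h response was the higher for 71 (0.314%) and the lower for 127 (0.561%). The control-adjusted arrays of the 2 groups did not overlap for any of the 198, where 19.1% of all probe sets did not overlap in the higher and 12.8% in the lower direction. An unadjusted p below 0.05 was reached by 3729 probe sets. With 1 probe set per gene, the one with the highest mean, 116 of 12393 genes were called (0.936%), 35 higher (0.282%) and 81 lower (0.654%). When each array was centred on its own median, 24.6% of the calls were higher in place of 35.9%, and the median difference of all probe sets went from 0.045 to 0. Treating equal numbers as pairs within the 24 h arrays and controls 1 to 3, which deviated together, gave 650 calls, 284 higher and 366 lower, among them all 198. The count moved with single arrays: it was 118 without 12 h replicate 3, 94 without 12 h replicate 4, 756 without 24 h replicate 1, 319 without 24 h replicate 3, 127 without control 1, 467 without control 3, 123 without control 6 and 123 without control 7.

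Probe sets called at both times nearly always had the same direction. The 24 h response alone called 3023 probe sets, 13.4% of those tested (6.1% higher and 7.26% lower), and the 12 h response alone 1211, or 5.35% (3.2% higher and 2.16% lower). A total of 604 were called at both times, 20% of the 24 h calls and 49.9% of the 12 h calls, and 602 of them had the same direction. The difference of responses was not called for 586 of these 602. Across the 12393 genes, the responses had a Pearson correlation of 0.423, a description over genes, which are not independent. Of the 2419 probe sets called at 24 h and not at 12 h, the responses themselves differed by the test for 138, and of the 607 called at 12 h and not at 24 h for 41. With pairs in the first set, the 24 h response alone called 4827 probe sets, and without control 1 it called 1678.

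**Figure D1:**
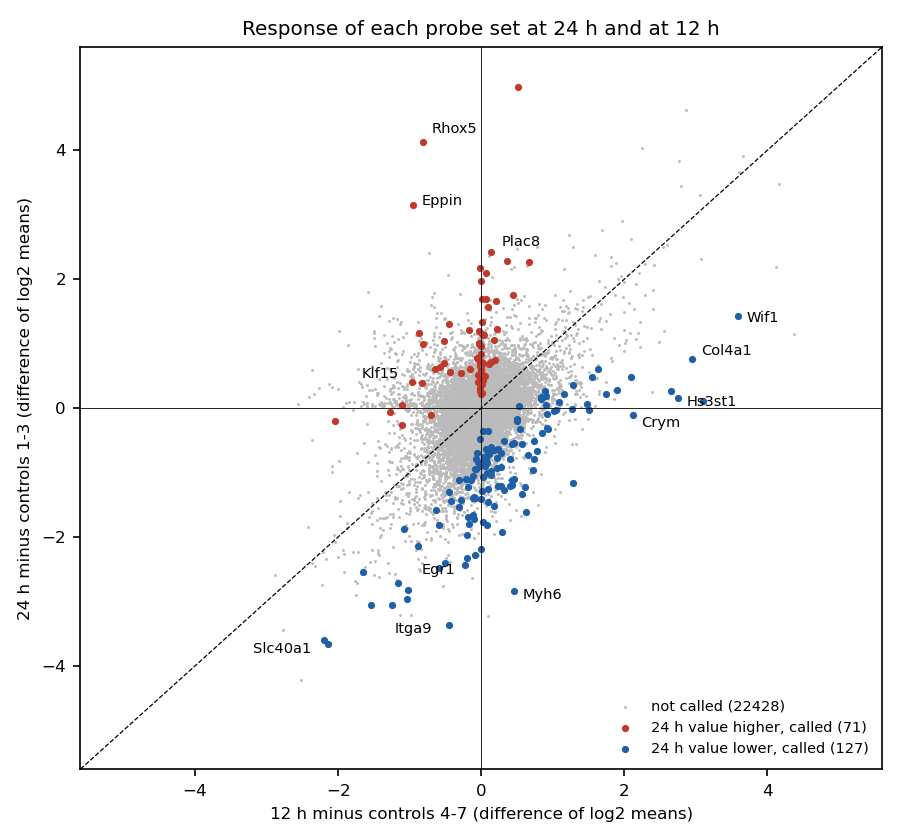
Each point is 1 of 22626 probe sets, with its 12 h response (12 h mean minus mean of controls 4 to 7, log2) on the x axis and its 24 h response (24 h mean minus mean of controls 1 to 3, log2) on the y axis. The dashed line marks equal responses, and some genes are named. The 71 probe sets called higher at 24 h lie above the line and the 127 called lower lie under it, with Rhox5 at 4.13 at 24 h and -0.82 at 12 h.

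The 198 calls fell into a few time patterns. In 62 probe sets the 24 h response was called higher and the 12 h response was not called, and in 76 the 24 h response was called lower and the 12 h response was not. A smaller group of 33 was called higher at 12 h and was not called at 24 h. For 13 probe sets both responses were called lower, the 24 h response more so, as for Slc40a1 and Antxr1. Only 2 probe sets, those of Wif1 and Dhcr7, were called higher at both times and less so at 24 h. A further 8 were called lower at 12 h and not at 24 h, as was Klf15.

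Late rising genes were led by a pair that Sertoli cells are known to switch on under androgen. Rhox5 encodes an X-linked homeobox transcription factor. It read 7.42, 7.00 and 7.68 in the 24 h testes against 3.03, 3.04 and 3.64 in controls 1 to 3, and 3.76, 3.69, 3.21 and 2.67 in the 12 h testes against 4.19, 3.83, 5.56 and 3.02 in controls 4 to 7. All 3 testes at 24 h were thus far above every control, and those at 12 h lay within or below the range of theirs. The difference of responses was 4.95 ± 0.63 (SE; limma adjusted p = 0.00256), a 30.9-fold ratio of fold changes, from a 24 h response of 4.13 and a 12 h response of -0.82. Without control 6, the highest of the controls, it was 4.48 (adjusted p = 0.00133). At 72 h Rhox5 was 4.27 above controls 4 to 7, a set that the 12 h arrays share.

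Eppin encodes an inhibitor of serine proteases that coats sperm and is made by Sertoli cells and the epididymis. It read 7.10, 7.78 and 7.70 at 24 h against 4.34, 4.62 and 4.15 in controls 1 to 3, and 6.02, 5.89, 4.34 and 5.29 at 12 h against 6.51, 5.91, 7.10 and 5.81 in controls 4 to 7. The control levels of the 2 sets did not overlap for this gene, and only the 24 h mice exceeded their own controls. The difference was 4.10 ± 0.53 (limma adjusted p = 0.00256) and 3.85 without control 6 (adjusted p = 0.00515).

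The wider list of androgen responsive Sertoli genes had 14 measured members. By the brightest probe set of each gene, these 2 were called higher and none lower, where 0.282% and 0.654% of all genes were. A further 11 had an estimate above 0, the median of the list was 0.46 against 0.04 over all genes, and 8 of the 14 did not overlap in the higher direction, where 19.1% of all probe sets did so. On its own, the 24 h response was called higher for 8 members and lower for 1 (6.1% and 7.26% of all probe sets). Several of these had already been higher at 12 h: Tubb3, a tubulin isotype, stood 3.06 above its controls at 12 h and 3.30 at 24 h, and Fah, the last enzyme of tyrosine breakdown, 1.81 and 2.34. Neither was called in the difference. Gpd1 was not called by its brightest probe set, at 0.09 (limma adjusted p = 0.794). A dimmer Gpd1 probe set had 1.31, which was called (adjusted p = 0.00251), from responses of 1.75 at 24 h and 0.44 at 12 h. The dimmest Gpd1 probe sets had 0.19 and 0.04, not called. Tsx, a testis gene of the X chromosome, gave values of 0.86 at 24 h and -0.88 at 12 h, and its difference of 1.74 was not called (limma adjusted p = 0.118). With pairs in the first set Tmem150b was called higher as well, at 0.39 (adjusted p = 0.0239, against 0.0958), whose values all lay between 1.81 and 2.53, near the bottom of the scale.

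Leydig cell genes can stand beside these. Cyp17a1, the enzyme that turns progestins into androgens, read 11.57, 11.16 and 12.46 at 24 h against 7.71, 6.98 and 6.63 in its controls, and 11.50, 11.28, 11.20 and 11.01 at 12 h against 8.43, 9.55, 8.25 and 7.30. It was thus far higher in treated mice at both times, by 4.62 at 24 h and 2.86 at 12 h. The difference, 1.76 ± 0.63, was not called (limma adjusted p = 0.204), although the control-adjusted arrays did not overlap. Cyp11a1, which makes pregnenolone from cholesterol, had responses of 4.03 and 2.24 and a difference of 1.79 ± 1.12 (adjusted p = 0.407). Star, which carries cholesterol into mitochondria, had a difference of -0.04 ± 0.42 from responses of 2.50 and 2.54. Dimmer Star probe sets had differences of 0.37 and 1.06, neither of them called (limma adjusted p = 0.637 and 0.255). Of 12 measured genes of steroid hormone synthesis none was called in limma's test of the difference, with 2 at an unadjusted p below 0.05, and the same held for 13 Leydig cell markers, with 4. With pairs in the first set 1 of these markers was called, the steroid reductase Akr1c14, at 0.72 (adjusted p = 0.0497, against 0.0708). The marker Vcam1 was not called by its brightest probe set, at 0.89 (limma adjusted p = 0.286). Dimmer Vcam1 probe sets gave 1.25, which was called (adjusted p = 0.035), and 1.58, which was not (adjusted p = 0.106). The Leydig markers as a group averaged 6.84 to 7.11 in the 24 h testes against 6.21 to 6.46 in controls 1 to 3, and 6.64 to 6.96 at 12 h against 6.16 to 6.66 in controls 4 to 7.

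Among FSH regulated Sertoli genes, 1 of 15 measured members was called, in the higher direction, where 0.282% of all genes were. This was Shbg, which encodes androgen-binding protein. It read 8.13, 8.54 and 8.27 at 24 h against 7.50, 7.59 and 7.74 in controls 1 to 3, and 7.79, 7.81, 7.19 and 7.31 at 12 h against 8.09, 7.78, 8.00 and 8.31 in controls 4 to 7. The 24 h testes were all above their controls, and the 12 h testes lay level with or below theirs. The difference was 1.22 ± 0.24 (limma adjusted p = 0.0261), and 1.24 (adjusted p = 0.0507) without control 6. At 72 h Shbg was 1.22 above controls 4 to 7.

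Other FSH targets were not called in the difference. Inha, the alpha subunit of the inhibins, was 1.87 above its controls at 12 h and 1.75 at 24 h, a difference of -0.12 ± 0.17 (limma adjusted p = 0.705). Fabp5, a fatty acid carrier, was 3.60 above its controls at 12 h and 3.65 at 24 h (difference 0.06 ± 0.40). The FSH receptor transcript itself, Fshr, was below its controls by a like amount at both times, -1.10 at 12 h and -1.24 at 24 h. A pair of secreted Sertoli products had estimates below 0. Inhbb, the beta B subunit of inhibin and activin, was 0.84 above its controls at 12 h and -0.02 at 24 h. Its difference of -0.87 ± 0.26 was not called (adjusted p = 0.137), but was with pairs in the first set (adjusted p = 0.0209). A dimmer Inhbb probe set had a difference of -0.06 (limma adjusted p = 0.841). Kitl, the ligand of the Kit receptor on spermatogonia, was 0.96 above its controls at 12 h and 0.04 at 24 h, with a difference of -0.93 ± 0.24 (adjusted p = 0.088).

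Igf1, insulin-like growth factor 1, belonged to the late group too. It read 9.86, 10.00 and 10.15 at 24 h against 7.84, 8.41 and 6.97 in controls 1 to 3, and 9.27, 9.22, 9.15 and 9.40 at 12 h against 8.48, 8.86, 8.62 and 8.39 in controls 4 to 7. Treated testes exceeded all controls of their set at both times, by more at 24 h. The difference was 1.60 ± 0.34 (limma adjusted p = 0.0455) and lay near the threshold: leaving out 1 array at a time kept the call in 3 of 14 fits, with a highest adjusted p of 0.0958 and one of 0.0866 without control 6. A pair of further Igf1 probe sets gave 1.55 and 1.74. Of the 17 measured genes of the insulin-like growth factor axis no other was called, and the median of the list was -0.46. Igf2, a fetal growth factor of the same family, was called lower with pairs in the first set, at -0.76 (adjusted p = 0.0438, against 0.206). Igfbp3, a carrier of the growth factor, had responses of -3.21 at 24 h and -1.14 at 12 h, and a difference of -2.07 ± 0.67 (adjusted p = 0.164).

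Plac8, a small cysteine-rich protein, read 8.22, 8.35 and 8.25 at 24 h against 6.42, 5.74 and 5.42 in its controls, and 7.11, 6.79, 6.72 and 6.85 at 12 h against 6.26, 6.90, 7.07 and 6.69. Only the 24 h group was apart, and the difference was 2.27 ± 0.29 (limma adjusted p = 0.00287). Klf15, a Krüppel-like factor of metabolic control, had the difference on the 12 h side: 4.63, 4.78, 4.75 and 4.60 against 5.87, 5.46, 5.84 and 5.47 in controls 4 to 7. At 24 h it read 5.65, 5.68 and 6.18 against 5.71, 5.54 and 5.05, so its difference of 1.37 ± 0.23 (adjusted p = 0.0156) came mainly from a 12 h response of -0.97. Bbx, an HMG-box protein, gave 1.57 ± 0.27 (adjusted p = 0.0162). Plac8, Klf15 and Bbx, with Rhox5 and Eppin, were called in all 14 fits that left out 1 array.

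The remaining 7 of the 14 most raised genes were called in some of those fits and not in others. Stard10, a phospholipid carrier, had a difference of 2.04 and was called in 6. Tcf19, a PHD finger protein, had 1.81 and Tpd52l1, of the tumour protein D52 family, 1.76, each called in 6 fits. Septin1, a cytoskeletal GTPase, had 1.62 (6 fits), Lce1d, a cornified envelope protein, 1.38 (5 fits), and Cyp27a1, the sterol 27-hydroxylase, 1.22 (8 fits). Laptm5, a lysosomal protein of blood cells, had 1.22 (4 fits). Without control 6, Stard10 and Septin1 stayed called, and the adjusted p was 0.0588 for Tcf19, 0.0829 for Tpd52l1, 0.0874 for Lce1d, 0.063 for Cyp27a1 and 0.0874 for Laptm5. Cyp27a1 resembled Klf15 in being called at 12 h, with -0.83, and not at 24 h, with 0.39.

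**Figure D2:**
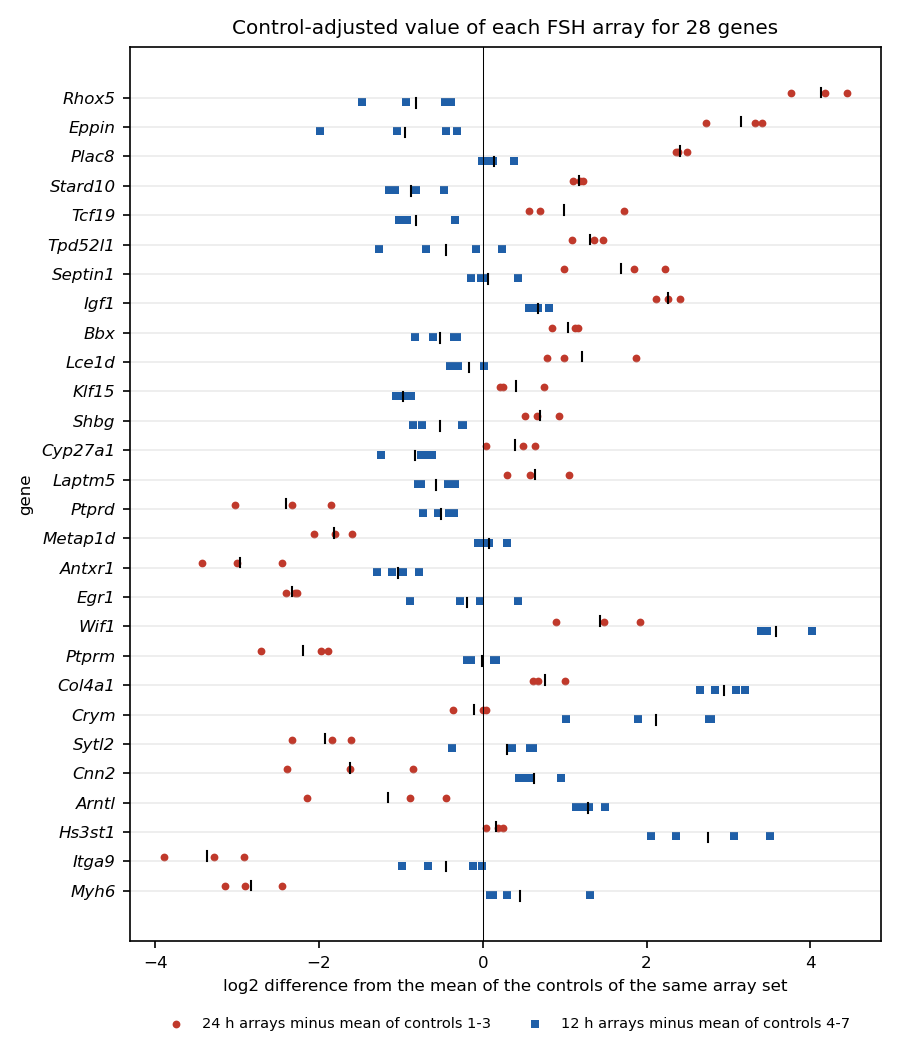
The x axis gives the log2 value of each FSH-treated array minus the mean of the controls of its set, and the y axis the 14 genes with the largest difference of responses in each direction among called genes; red circles are the 3 arrays at 24 h, blue squares the 4 at 12 h, and black bars group means. For every gene the circles and squares do not overlap, with Rhox5 between 3.77 and 4.44 at 24 h and between -1.48 and -0.39 at 12 h.

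A smaller group of genes had the higher response at 12 h. Wif1, a secreted inhibitor of Wnt ligands, read 6.57, 6.53, 6.61 and 7.16 at 12 h against 3.02 to 3.22 in controls 4 to 7, and 5.35, 4.91 and 4.32 at 24 h against 3.33, 3.69 and 3.27 in controls 1 to 3. It was above its controls in every treated testis, and by less at 24 h. The responses were 3.58 at 12 h (12.0-fold) and 1.43 at 24 h (2.70-fold), and their difference was -2.15 ± 0.34 (limma adjusted p = 0.0106). Hs3st1, which adds a sulfate to heparan sulfate chains, read 4.77, 5.08, 5.79 and 6.23 at 12 h against 2.52 to 2.99 in its controls. At 24 h it read 2.80, 2.94 and 3.01 against 2.75 to 2.77, so it lay close to its controls. Its difference was -2.59 ± 0.37 (adjusted p = 0.00411). Crym, a thyroid hormone binding protein, had a 12 h response of 2.12 and a 24 h response of -0.11 (difference -2.22, called in 6 of the 14 fits that left out 1 array, with an adjusted p of 0.0777 without control 6).

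Among basement membrane genes, Col4a1 and Lama1 also had the higher response at 12 h. Col4a1, a chain of type IV collagen, the scaffold of the tubule's basement membrane, read 10.13, 10.31, 10.68 and 10.57 at 12 h against 7.76, 7.80, 7.23 and 7.10 in controls 4 to 7. At 24 h it read 7.77, 8.17 and 7.83 against 7.41, 7.71 and 6.37 in controls 1 to 3. All 7 treated testes were above their controls, but the 12 h ratio was 7.73-fold. The 24 h ratio was 1.70-fold, which was not called on its own (adjusted p = 0.0912, or 0.0402 with pairs in the first set). The difference was -2.19 ± 0.38 (limma adjusted p = 0.0162). A second Col4a1 probe set, nearly as bright, had responses of 2.08 at 12 h and 1.17 at 24 h, both called. Its difference of -0.91 was not called (limma adjusted p = 0.147). Its partner chain Col4a2 had 1.83 at 12 h and 0.73 at 24 h, a difference of -1.09 (adjusted p = 0.130, and 0.0319 with pairs in the first set). Lama1, a laminin chain of the same membrane, had 0.85 and -0.39, with a difference of -1.24 ± 0.24 (adjusted p = 0.0261, called in 8 of 14 fits that left out 1 array, and 0.0546 without control 6).

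Of 30 measured genes of basement membrane and matrix, 3 were called lower (10% of the members, with 0.654% of all genes) and none higher, and the median was -0.26. The median responses of the list were 0.19 at 24 h and 0.18 at 12 h. The third was Timp3, a matrix-bound inhibitor of metalloproteinases, with another time course. It read 7.68, 7.64 and 7.40 at 24 h against 9.57, 9.96 and 9.08 in its controls, and 9.13, 9.19, 9.78 and 9.97 at 12 h against 9.29, 10.19, 9.73 and 9.66. The 24 h testes were all below their controls, whereas the 12 h testes overlapped theirs. The difference was -1.76 ± 0.35 (limma adjusted p = 0.0269, called in 8 of those fits, and 0.0562 without control 6). Col18a1, a collagen of the same membrane, had been called higher at both times, at 1.95 and 2.04, and did not differ by the test. With pairs in the first set, 5 members were called lower and 1 higher, where 230 and 140 of all 12393 genes were. Without control 6 the count was 1 lower, where 48 of all genes were.

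More cholesterol synthesis genes were called higher at 12 h than at 24 h. This pathway supplies the sterol for membranes and for steroid hormones, and it is driven by SREBP transcription factors that Scap escorts to the Golgi. Of 20 measured members, 10 were called higher at 12 h and 5 at 24 h, where 3.2% and 6.1% of all probe sets were. For the difference, 4 were called lower (20% of the members, with 0.654% of all genes called lower) and none higher. The estimate was below 0 for 17 of 20, and the median was -0.63. A total of 12 did not overlap in the lower direction, where 12.8% of all probe sets did so. With pairs in the first set 6 were called lower, where 230 of all 12393 genes were. Without control 6 there were 3, where 48 of all genes were.

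Dhcr7, the enzyme of the last step to cholesterol, read 8.04, 8.25, 7.84 and 8.05 at 12 h against 6.34, 6.67, 6.32 and 6.32 in its controls, and 7.34, 7.39 and 7.34 at 24 h against 6.92, 6.91 and 6.44. It was above its controls in every treated testis, by 1.64 at 12 h and 0.60 at 24 h, and the difference was -1.04 ± 0.18 (limma adjusted p = 0.0158). Hmgcs1, which makes the precursor HMG-CoA, read 11.20, 10.97, 11.25 and 11.37 at 12 h against 10.10, 10.52, 10.27 and 10.22, and 10.18, 10.07 and 10.33 at 24 h against 10.32, 10.54 and 9.98. The 12 h testes were above their controls and the 24 h testes within the range of theirs, and the difference was -1.01 ± 0.19 (adjusted p = 0.0253). All 3 further Hmgcs1 probe sets were negative, from -1.29 to -0.87. Sqle, squalene epoxidase, had responses of 1.54 and 0.49 and a difference of -1.05 ± 0.23 (adjusted p = 0.046), called in 5 of the 14 fits that left out 1 array (0.092 without control 6).

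Scap was called as well, with another course: it was 0.07 from its controls at 12 h and -0.63 at 24 h, a difference of -0.70 ± 0.13 (limma adjusted p = 0.0195). Dhcr7 and Scap were called in all 14 fits that left out 1 array. Idi1 and Cyp51, further enzymes of the pathway, had differences of -0.96 and -1.09 by their brightest probe sets. These were not called (adjusted p = 0.0599 and 0.0649). A dimmer Cyp51 probe set had -1.60, which was called (limma adjusted p = 0.0254), and the dimmest had 0.04, not called. Lss, another member, had -0.14 by its brightest probe set, not called (adjusted p = 0.741). Dimmer Lss probe sets gave -1.55, which was called (adjusted p = 0.0195), and 0.23, which was not. Mvk and Pmvk, the mevalonate kinases, differed by 0.01 and 0.02. Fasn, fatty acid synthase, which is under the same family of factors, was the only call among 27 genes of fatty acid metabolism, at -0.70 (adjusted p = 0.0368, called in 5 of 14 fits, and 0.0666 without control 6). At 72 h Dhcr7, Sqle and Hmgcs1 were 0.61, 0.30 and 0.33 above controls 4 to 7.

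**Figure D3:**
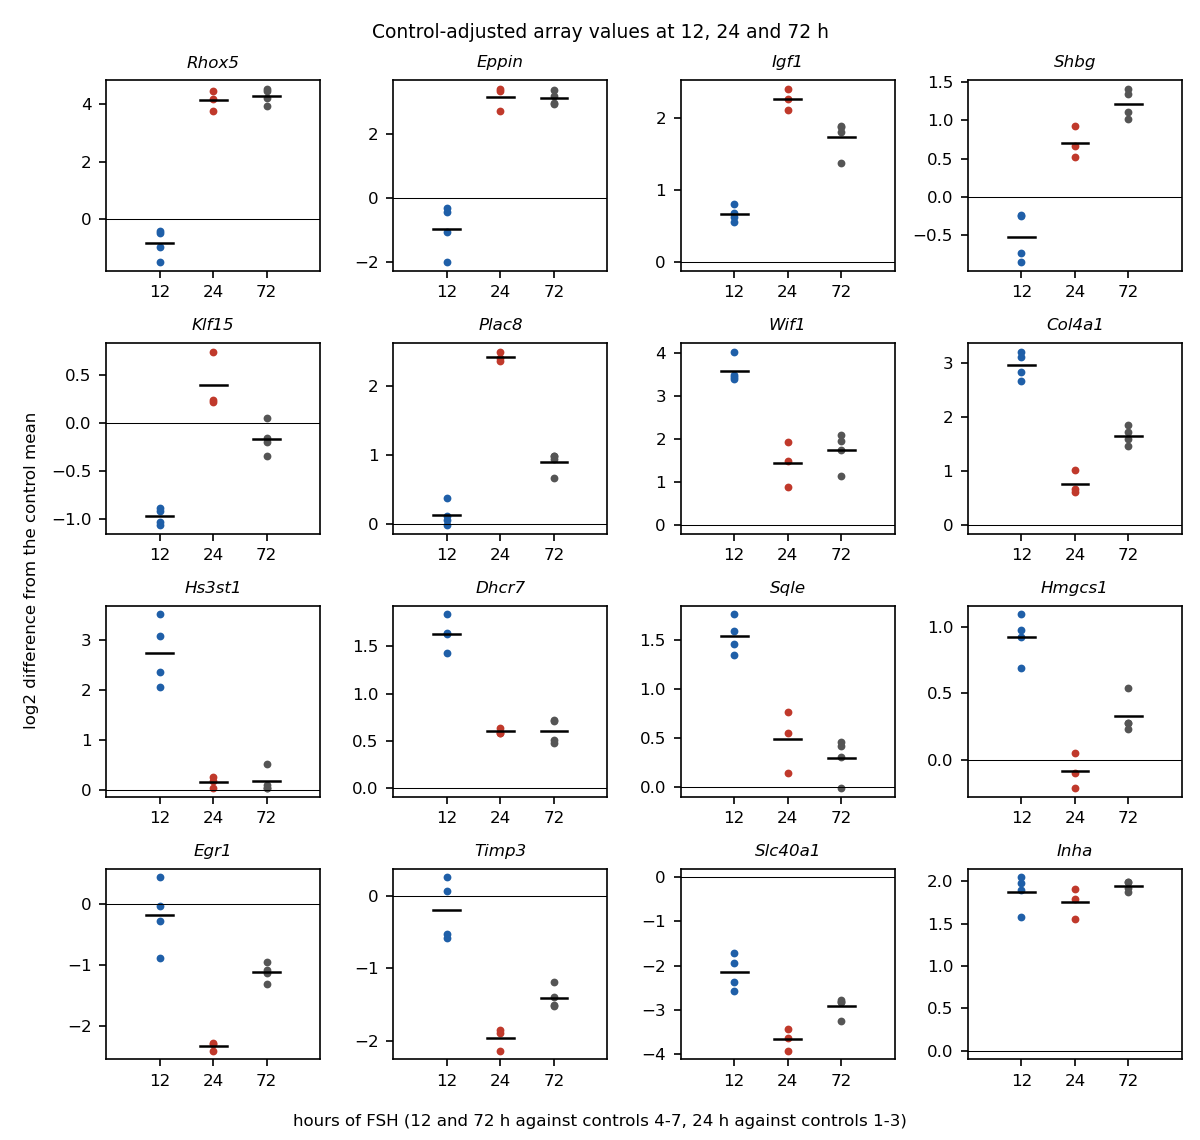
Each panel gives, for 1 of 16 genes, the log2 value of every FSH-treated array minus the mean of its controls (y axis; controls 4 to 7 for 12 and 72 h, controls 1 to 3 for 24 h) against hours of FSH (x axis, spaced by group and not to scale), with black bars for means; y axes differ between panels. Rhox5 and Eppin are high at 24 and 72 h alone, Wif1 and Col4a1 are highest at 12 h, and Inha is level at 1.87, 1.75 and 1.95.

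Of the 4 called cholesterol genes, the promoters of Hmgcs1 and Dhcr7 are shown because they hold a match to a searched motif. Both listed promoters of Scap held none. Sqle had no promoter listed, so it was not searched. The sequences are the 250 bases before the annotated start of each gene in RefSeq on build GRCm38.p6. For Dhcr7 this is the first of 3 listed starts, and the later ones held no match. Capitals mark a match to the short cyclic AMP response motif TGACG or its reverse complement CGTCA, or to the site type of nuclear receptor NR5A1, CAAGGTCA. The Hmgcs1 sequence is chr13:119690101-119690350 on the plus strand and the Dhcr7 sequence chr7:143822917-143823166 on the plus strand.
Hmgcs1: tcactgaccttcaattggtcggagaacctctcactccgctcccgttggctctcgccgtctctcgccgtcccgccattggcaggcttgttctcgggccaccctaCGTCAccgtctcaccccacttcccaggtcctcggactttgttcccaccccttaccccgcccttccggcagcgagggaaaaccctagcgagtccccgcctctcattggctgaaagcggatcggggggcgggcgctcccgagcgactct
Dhcr7: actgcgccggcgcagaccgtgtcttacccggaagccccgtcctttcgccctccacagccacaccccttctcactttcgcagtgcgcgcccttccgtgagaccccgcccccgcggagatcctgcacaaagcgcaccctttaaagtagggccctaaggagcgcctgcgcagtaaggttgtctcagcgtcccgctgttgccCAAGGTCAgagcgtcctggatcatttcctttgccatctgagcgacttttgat
The match in Hmgcs1 begins 147 bases before the start and that in Dhcr7 52 bases before it. Over both strands, TGACG was in 6 of the 16 cholesterol promoters found in the table (37.5%) and in 19.8% of the promoters of all 27025 genes. CAAGGTCA was in 1 of the 16 (6.25%) and in 1.51% of all. A single exact form of the sterol response element was also searched and was in none of the 16 and in 0.0814% of all, and forms that differ from it in any letter were not searched. A match is a description of these letters and not a measured site.

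Immediate early genes, which respond to a stimulus without new protein synthesis, were read 1 h after an injection in both groups. Of 25 measured, 2 were called lower in the difference (8% of the members, with 0.654% of all genes) and none higher. The estimate was below 0 for 21, and the median was -0.30. On its own the 24 h response was called lower for 7 (with 7.26% of all probe sets) and higher for none. The 12 h response was called higher for 2 and lower for 2, where 3.2% and 2.16% of all probe sets were. The list had 5 lower calls with pairs in the first set and 1 without control 6. In these fits 230 and 48 of all 12393 genes were called lower.

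Egr1, a zinc finger factor at the head of this class, read 5.28, 5.30 and 5.17 at 24 h against 7.88, 7.75 and 7.08 in controls 1 to 3, and 6.75, 6.14, 7.46 and 6.99 at 12 h against 7.00, 7.09, 6.77 and 7.24 in controls 4 to 7. The 24 h testes were well below every control, and the 12 h testes were spread around theirs. The difference was -2.13 ± 0.35 (limma adjusted p = 0.0115), and it was called in all 14 fits that left out 1 array. Dusp1, a phosphatase that shuts off MAP kinases, read 4.76, 4.75 and 4.75 at 24 h against 6.30, 6.52 and 5.08, and 5.53, 5.81, 6.09 and 6.01 at 12 h against 4.88 to 5.63. Its responses were -1.22 and 0.61, and the difference of -1.82 ± 0.39 (adjusted p = 0.0431, and 0.0874 without control 6) was called in 5 of those fits.

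Nr4a1, an orphan nuclear receptor that cyclic AMP induces, kept to the 12 h side. It read 6.28, 6.53, 7.43 and 6.79 at 12 h against 5.19, 4.65, 5.09 and 4.70, and 5.32, 6.46 and 5.31 at 24 h against 5.25, 5.78 and 5.24. All 4 testes at 12 h were above their controls, and 1 of 3 at 24 h was. The responses were 1.85 and 0.27, and the difference of -1.58 ± 0.41 was not called (limma adjusted p = 0.0911) but was with pairs in the first set (adjusted p = 0.0298). Fos, a partner in the AP-1 factor, had 1.49 at 12 h and -0.17 at 24 h, with a difference of -1.66 (adjusted p = 0.217). The Jun family member Jund had a difference of -0.64, called only with pairs in the first set (adjusted p = 0.0153 against 0.105). Ccn2 and Ier3 were called lower at both times, with responses of -1.63 and -1.40 at 12 h and -2.46 and -1.97 at 24 h.

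The promoters of Dusp1 and Nr4a1 are shown because both hold several cyclic AMP response motifs. Capitals mark TGACG or CGTCA, and in Dusp1 also the full palindrome TGACGTCA. The Dusp1 sequence is chr17:26508473-26508722 on the minus strand, and the Nr4a1 sequence chr15:101266596-101266845 on the plus strand (RefSeq, GRCm38.p6, 250 bases before the start).
Dusp1: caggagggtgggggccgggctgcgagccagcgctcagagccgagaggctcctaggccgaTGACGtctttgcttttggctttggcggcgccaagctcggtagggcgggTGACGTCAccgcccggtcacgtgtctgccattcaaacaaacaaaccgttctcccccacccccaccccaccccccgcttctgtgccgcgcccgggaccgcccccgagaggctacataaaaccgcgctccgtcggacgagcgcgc
Nr4a1: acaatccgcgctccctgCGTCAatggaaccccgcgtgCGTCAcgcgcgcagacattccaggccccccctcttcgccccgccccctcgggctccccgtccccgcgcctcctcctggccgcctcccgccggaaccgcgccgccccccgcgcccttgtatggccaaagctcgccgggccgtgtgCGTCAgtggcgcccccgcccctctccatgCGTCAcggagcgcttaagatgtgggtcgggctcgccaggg
In Nr4a1 the matches begin 233, 213, 69 and 40 bases before the start. In Dusp1 they begin 191 bases before it and, within the palindrome, 143 and 140 bases before it, 1 on each strand. TGACG was in 12 of the 19 immediate early promoters found (63.2%), with 19.8% among all genes, and TGACGTCA in 2 of 19 (10.5%), with 1.77% among all. The motif was shared by Nr4a1 and Dusp1, whose 24 h responses were 0.27 and -1.22.

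**Figure D4:**
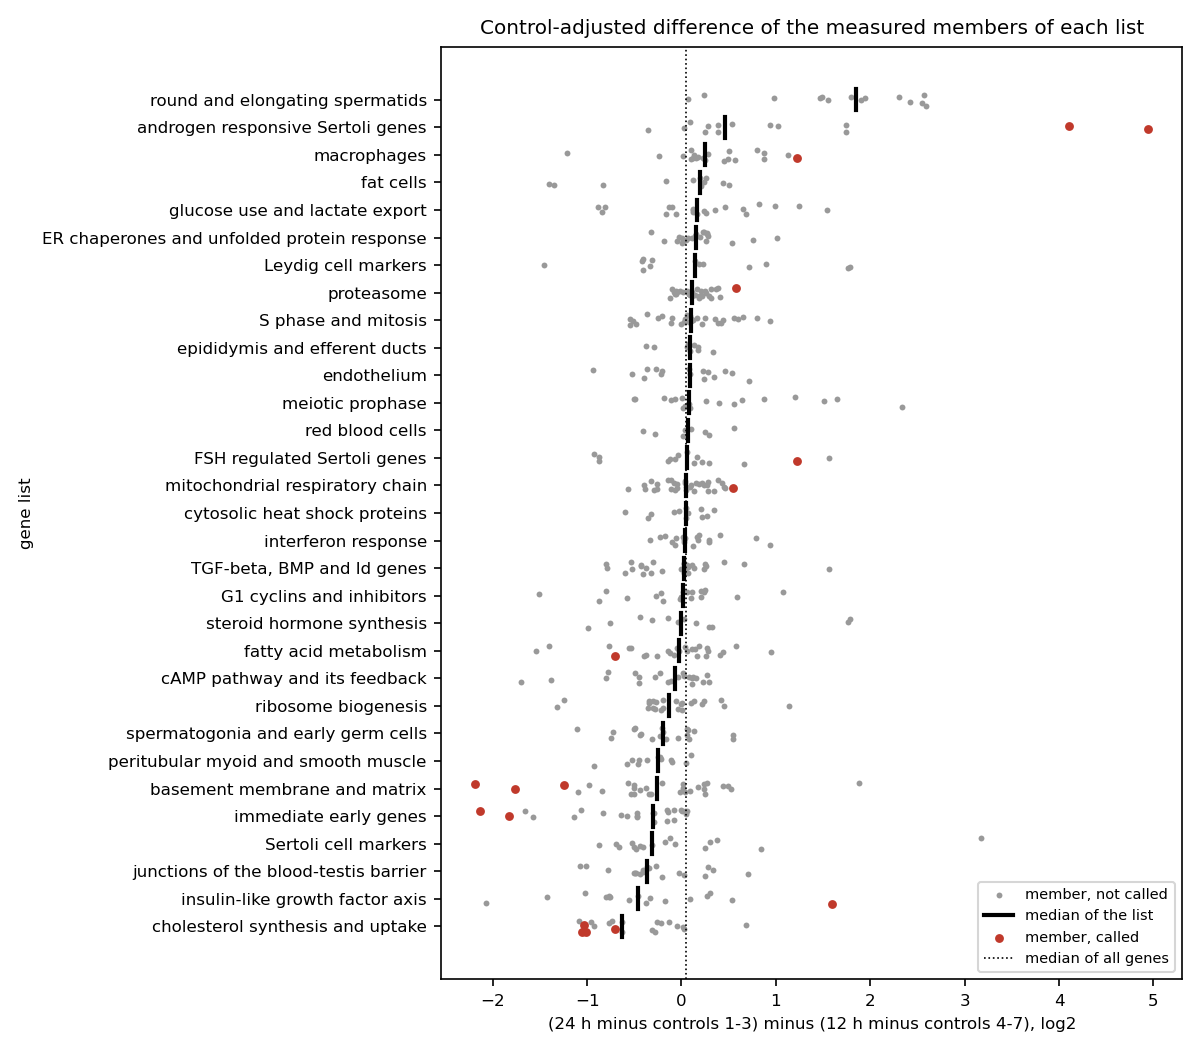
The x axis gives the difference of responses (24 h minus controls 1 to 3, less 12 h minus controls 4 to 7, log2) of each measured member of 31 gene lists (y axis), 1 probe set per gene; grey points were not called, red points were called by limma at an adjusted p below 0.05, black bars are list medians and the dotted line the median of all genes. Cholesterol genes have the lowest list median, -0.63, and the spermatid list the highest, 1.85, which is 0.22 without control 6.

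The largest group of calls held genes that were lower at 24 h and had no called response at 12 h. Itga9, an integrin subunit that binds matrix proteins, read 3.45, 2.48 and 3.09 at 24 h against 6.23, 6.65 and 6.22, and 6.26, 5.94, 6.81 and 6.92 at 12 h against 7.12, 7.38, 6.56 and 6.65. Only the 24 h testes were apart from their controls, and the difference was -2.91 ± 0.38 (limma adjusted p = 0.0032). A pair of dimmer Itga9 probe sets gave 0.34 and -0.15. Cnn2, an actin-binding calponin, had responses of -1.62 at 24 h and 0.62 at 12 h (difference -2.25 ± 0.36, adjusted p = 0.0108). Ptprm, a receptor tyrosine phosphatase of cell contacts, had -2.19 and -0.01 (difference -2.19 ± 0.40, adjusted p = 0.0198). Itga9, Cnn2 and Ptprm were called in all 14 fits that left out 1 array, as were Col4a1, Wif1 and Hs3st1.

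Myh6, the alpha heavy chain of cardiac myosin, had the most negative difference, -3.29 ± 0.67 (limma adjusted p = 0.0359). It read 3.86, 4.31 and 3.61 at 24 h against 7.19, 6.81 and 6.28, and 7.34, 7.13, 7.17 and 8.36 at 12 h against 6.51, 8.53, 6.82 and 6.31. The 24 h testes lay well below all others, and the call was kept in 5 of those 14 fits (adjusted p = 0.0738 without control 6). Sytl2, a Rab27 effector in secretion, had -2.22 (8 fits), Antxr1, a cell surface receptor for collagen, -1.92 (5 fits), Metap1d, a mitochondrial aminopeptidase, -1.89 (5 fits), and Ptprd, another receptor phosphatase, -1.89 (4 fits). Without control 6 the adjusted p was 0.0546 for Sytl2, 0.0575 for Antxr1, 0.0608 for Metap1d and 0.0842 for Ptprd. The 2 dimmer Ptprd probe sets had the same sign, with -2.22 and -1.18. A dimmer probe set had the opposite sign for Myh6 (0.42), Antxr1 (0.23) and Metap1d (0.26), each with a mean below 4 and not called. Arntl, the clock factor BMAL1, was 1.29 above its controls at 12 h. Its 24 h response of -1.16 was not called on its own (adjusted p = 0.068), and the difference was -2.45 (adjusted p = 0.0455, called in 5 fits, and 0.0901 without control 6).

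Slc40a1, ferroportin, the exporter of iron from cells, was below its controls at both times. It read 4.59, 4.30 and 4.79 at 24 h against 8.20, 8.17 and 8.31, and 5.54, 4.69, 4.88 and 5.32 at 12 h against 7.09, 7.64, 7.03 and 7.25. Every treated testis was below every control of its set, with ratios of 12.7-fold for the 24 h group and 4.43-fold for the 12 h group. The control levels of the 2 sets differ, and the treated levels of the 2 times overlap. The difference was -1.52 ± 0.28 (limma adjusted p = 0.0228, and 0.0527 without 12 h replicate 4). Rgs11, a regulator of G protein signalling, was below its controls by 4.21 at 24 h and 2.52 at 12 h in log2 terms, and its difference of -1.70 was not called (adjusted p = 0.135).

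Germ cell genes gave no call. Kit, the receptor of differentiating spermatogonia, had responses of -1.39 at 24 h and -0.29 at 12 h (difference -1.10 ± 0.43, limma adjusted p = 0.242), and Stra8, which starts meiosis, -1.06 and -0.33 (difference -0.73 ± 0.27, adjusted p = 0.217). Of 20 spermatogonial and early germ cell genes, 7 were called lower at 24 h and 1 at 12 h, where 7.26% and 2.16% of all probe sets were. None was called in limma's test of the difference, with 5 at an unadjusted p below 0.05, and the list averaged 5.97 to 6.23 at 24 h against 6.47 to 6.63 in controls 1 to 3. All 14 spermatid genes had an estimate above 0, and the median of 1.85 became 0.22 without control 6. Ccnd1, the G1 cyclin D1, had -1.24 at 24 h and 0.28 at 12 h, and its difference of -1.51 ± 0.37 was called with pairs in the first set alone (adjusted p = 0.0466, against 0.0711).

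The proteasome and respiratory chain lists held 1 call each, or 3.23% and 2.94% of their members, with 0.936% of all genes. On its own, the 24 h response was called higher for 14 of 31 proteasome genes and the 12 h response for 6, where 6.1% and 3.2% of all probe sets were, and none was called lower. For the difference, 1 was called, Psmc2, an ATPase of the 19S cap, at 0.57 ± 0.12 (limma adjusted p = 0.0401, and 0.0842 without control 6), and the median was 0.11 against 0.04 over all genes. Among 34 respiratory chain genes 1 was called, Sdhb, the iron-sulfur subunit of complex II, at 0.55 ± 0.12 (adjusted p = 0.0486, and 0.0912 without control 6), and the median was 0.05. These single calls were kept in 4 and 5 of the 14 fits that left out 1 array, and neither list had a call without control 6. Among 21 macrophage markers Laptm5 was the only call, the median was 0.25, and that call too was lost without control 6 (adjusted p = 0.0874). The macrophage markers averaged 4.99 to 5.22 at 24 h against 5.06 to 5.24 in controls 1 to 3, and 5.18 to 5.50 at 12 h against 5.64 to 5.85 in controls 4 to 7. Their part in the other results was not tested.

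In all, 10 of the 31 lists held a call and 21 held none by limma's test, which called 0.936% of all genes. The 21 had 0 to 6 members each at an unadjusted p below 0.05, and their medians lay between -0.37 and 0.20, apart from the spermatid list. They included cyclic AMP pathway genes (22 measured, median -0.07), junctions of the blood-testis barrier (19, -0.37), Sertoli cell markers (17, -0.31), glucose use (21, 0.16), S phase and mitosis (31, 0.10), ribosome biogenesis (24, -0.13) and chaperones of the endoplasmic reticulum (22, 0.15). In the last list 18 members had an estimate above 0, and the median 24 h response was 0.27 where the median 12 h response was -0.02. The peritubular myoid and smooth muscle list had 2 of 13 estimates above 0 and a median of -0.25. With pairs in the first set, 9 of the 21 lists held 1 or 2 calls among 372 measured members, counted list by list. In that fit 140 of all 12393 genes were called higher and 230 lower. No such count shows that a list behaved alike at the 2 times, since the median standard error of a difference was 0.20.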

How the data were processed

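RNA of 18 whole testes, 1 mouse per array, had been hybridised to Affymetrix MOE430A mouse arrays (8 micrograms of RNA per mouse, per the labels' protocols). The authors deposited 1 table of log2 values per probe set. RMA and GCRMA, which correct background, normalise between arrays and combine probes, appear in the submitters' processing notes. Which of them made the table, and in which version, is not given in the sources used here. A log2 scale was read from the range of values, and a low value gives only a bound on its transcript. No counts exist for arrays, so their number limits the precision.

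Of 22690 probe sets, 64 control probe sets were left out. The platform annotation gave 20380 of the rest 1 gene symbol, 691 several and 1555 none, and only the first were named. The fit used limma 3.58.1 (lmFit and eBayes, two-sided, R 4.3.3) and had 5 means over 18 arrays for each probe set: controls 1 to 3, controls 4 to 7, 12 h, 24 h and 72 h, with 13 residual degrees of freedom. The comparison was the contrast of the 24 h and 12 h responses. P values were adjusted by Benjamini-Hochberg over 22626 probe sets, with a call at 0.05, and errors are standard errors (SE). The script was tested on simulated data.

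Named are the 14 genes with the largest difference in each direction among called genes whose control-adjusted arrays did not overlap, up to 4 members with the smallest p of each list, and genes chosen for their known part in FSH action. Other list members were picked after their values were seen. The comparison, the genes and the 31 lists (651 genes, 592 of them measured) were chosen with earlier results of these data known.

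Equal replicate numbers of the 24 h arrays and controls 1 to 3 deviated together from their group means (correlations of 0.18, 0.34 and 0.41 for the 3 numbers), so a fit with these pairs as a block was added. This choice came after seeing the data, and nothing in the labels says what the numbers share. Alternatives were other normalisations, filters, spread models, control sets and leaving out each array. Promoter sequences are from a RefSeq table. Some genes are not reported here.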

Additional observations from a re-analysis of the deposited data

Results flagged for a closer look

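Single samples stood apart within their group of 4 by Dixon's criterion in 20 of 298 groups of named genes (6.71%), where chance gives about 1 in 20. In control 6 the values were 8.31 for Stard10, 10.64 for Odf1 and 7.68 for Acrv1, all high, and 7.54 for Prkacb and 2.94 for Septin1, both low. Odf1 and Acrv1 are spermatid genes. In control 4 they were 6.37 for Bbx and 5.62 for Metap1d, both low, and in control 5 they were 4.40 for Cyp11a1 and 6.67 for Dhcr7, both high. Among the 12 h arrays, replicate 1 had 7.75 for Kit, 13.14 for Aard and 3.29 for Ccna1, and replicate 2 had 6.40 for Tcf19 and 7.13 for Pdk1. Replicate 3 had 2.64 for Ifit1 and 6.20 for Sall4, and replicate 4 had 8.36 for Myh6, 7.16 for Wif1, 5.27 for Spo11 and 2.62 for Odf1.

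The responses at 24 h and 12 h differed by limma's test for 198 probe sets. Among named genes the difference was positive for 16. Those in the 14 of largest difference were Rhox5 (4.95), Eppin (4.10), Plac8 (2.27), Stard10 (2.04), Tcf19 (1.81), Tpd52l1 (1.76), Septin1 (1.62), Igf1 (1.60), Bbx (1.57), Lce1d (1.38), Klf15 (1.37), Shbg (1.22), Cyp27a1 (1.22) and Laptm5 (1.22). The others were Psmc2 (0.58) and Sdhb (0.55). Negative among the 14 of largest difference were Myh6 (-3.29), Itga9 (-2.91), Hs3st1 (-2.59), Arntl (-2.45), Cnn2 (-2.25), Sytl2 (-2.22), Crym (-2.22), Col4a1 (-2.19), Ptprm (-2.19), Wif1 (-2.15), Egr1 (-2.13), Antxr1 (-1.92), Metap1d (-1.89) and Ptprd (-1.89). The other negative ones were Dusp1 (-1.82), Timp3 (-1.76), Slc40a1 (-1.52), Lama1 (-1.24), Sqle (-1.05), Dhcr7 (-1.04), Hmgcs1 (-1.01), Scap (-0.70) and Fasn (-0.70).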

How the results depend on the processing

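The number of calls depended on the spread model and on single arrays more than on scaling. The difference of responses had 198 calls (71 higher, 127 lower). Without the 72 h arrays in the fit there were 51 (24 and 27), 49 of them among the 198, and with array weights 73 (35 and 38), when the 24 h response alone had 1144. Comparing both times with all 7 controls, which leaves the array set in the contrast, gave 9098 (6097 and 3001), and 8137 for the 24 h response. Trend and robust settings (192), quantile normalisation (167) and median centring (224) stayed within 1.5 times. Filters on low values kept the total (212 and 207) and cut the higher calls to 42 above the median mean and 37 above a log2 value of 6 on at least 3 arrays, since many higher calls are dim: 53 of the 198 had a mean below 4, 40 of them higher. Leaving out 1 array gave 94 to 756 calls (36 to 389 higher, 58 to 367 lower), and 1678 to 3848 for the 24 h response alone.

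Taking the replicate number as a block over all arrays gave 52 calls (45 and 7), 8 of them among the 198, and 255 for the 12 h response. Outside the first set, the correlations between arrays of equal number were between -0.24 and 0.13. The 12 h arrays and controls 4 to 7 share only number 4 (correlation 0.003). These values therefore cannot show whether those groups were paired. The replicate block within 24 h and controls 1 to 3 alone gave 650 calls (284 and 366) and 4827 for the 24 h response. It gained the call of 17 of 149 named genes and lost none. The values of 8 of the 17 stand beside those genes above, and the other 9 were Dmrt1, Slc16a1, Nectin2, Smad3, Polr1a, Rrp1b, Psmd6, Tpm1 and Cidec. The cause of these shifts was not tested, other than by the filters.

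None of the 28 genes of largest difference changed sign under any of the 24 alternatives. Of these, 12 were called in all 14 fits that left out 1 array, 23 after quantile normalisation, 10 with array weights and 7 without the 72 h arrays. Of 39 named called genes, 25 lost the call in at least 1 of the 14 fits, most often without control 1 or 12 h replicate 4 (24 genes each), control 7 (23), 12 h replicate 3 (22) or control 6 (21). With 3 and 4 arrays a group, the median standard error of a difference was 0.20.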

Other observations

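Genes in this section were picked after their values were seen and are given as descriptions. Of 12 clock genes, by the brightest probe set of each, the response was called at both times for 4 (Dbp, Tef, Nr1d2 and Per3) and at 12 h alone for 4 (Arntl, Per1, Per2 and Bhlhe40). It was called at neither for Clock, Nr1d1, Cry1 and Cry2. The difference of responses was not called for Per1, Per2 and Bhlhe40 (limma adjusted p = 0.4645, 0.3944 and 0.2596). Per2, Bhlhe40 and Nr1d1 averaged 2.86, 3.39 and 2.42 over the 14 arrays, near the bottom of the scale. Dbp, a clock output factor, read 8.61, 8.74, 8.56 and 9.13 at 12 h against 10.28 or more in controls 4 to 7, a response of -1.99, and 9.40, 9.17 and 8.84 at 24 h against 10.39, 9.83 and 9.64, a response of -0.82. By this probe set treated testes lay below all their controls at both times, and its difference of 1.17 was not called (limma adjusted p = 0.0714). A second, dimmer Dbp probe set had responses of -2.04 at 12 h and -0.21 at 24 h. There the 24 h testes overlapped their controls, and the difference of 1.84 was called (adjusted p = 0.0344). Nr1d2, a repressor of Arntl, had responses of -1.46 at 12 h and -1.06 at 24 h, Per3 had -1.85 and -1.30 (and 2 dimmer probe sets 0.22 and -0.16 at 24 h), and Tef, a relative of Dbp, -0.94 and -0.72. Per1 had 0.74 and 0.46, the latter not called (adjusted p = 0.0635).

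Fkbp5, a chaperone of steroid receptors that glucocorticoids and androgens induce, read 8.97, 8.95 and 8.95 at 24 h against 7.95, 7.63 and 7.63, and 7.96, 8.04, 7.84 and 8.02 at 12 h against 7.84, 7.70, 7.67 and 7.77. The 24 h testes exceeded their controls, by 1.22. The 12 h testes lay at or above theirs, and their response of 0.22 was not called (limma adjusted p = 0.184). A second probe set gave 2.28 and 0.36, and the difference was called for both (adjusted p = 0.00256 and 0.00396). Tsc22d3, another glucocorticoid target, had -0.70 and -0.49. Ptch1, the receptor of hedgehog ligands such as the Sertoli product Dhh, had -2.48 at 24 h and -0.58 at 12 h. Seminal vesicle gene Svs5 had a 12 h response of 1.64 and a 24 h response of 0.23.

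Probe sets of 1 gene did not always agree. Of 64 called probe sets that were not the brightest of their gene, the brightest was not called in 60, with the same sign in 45 and the opposite in 15. Lin7c shows the extreme: a probe set that read 2.37, 2.52 and 2.50 in controls 1 to 3 and 6.13 to 8.01 on the other 11 arrays had a difference of 4.46, while the brightest one had -1.04. The 24 h response of that probe set rests on a low value in those controls that the brightest probe set, at 7.43 to 8.03, did not show. Brightness moved with direction over the table as well. When the probe sets were split by mean level into 4 bins of equal size, the median differences were 0.06 and 0.14 in the dimmer bins and -0.09 and -0.09 in the brighter ones. Higher and lower calls numbered 12 and 2 in the dimmest bin and 11 and 56 in the brightest. Its part in the calls was not tested.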
